A study of Mus musculus with 24 samples.

Results

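The genes described here are 6 genes that encode the peptide transmitters and opioid receptors of the striatum: Penk, Pdyn, Tac1, Oprm1, Oprd1 and Oprk1. They were taken by gene symbol from a table of 54532 genes, and all 6 passed the filter on low counts, which left 19667 genes to test. RNA from the striatum of 1 hemisphere was sequenced from 24 C57BL/6 mice, 6 of each of 4 genotypes, with 3 males and 3 females in each. WT animals carried neither change. Q175 animals were heterozygous for Q175, an Htt (huntingtin) allele with a long knocked-in CAG repeat that serves as a model of Huntington's disease. TyrobpKO animals lacked Tyrobp, which encodes a signalling adaptor of microglial receptors, and Q175_TyrobpKO animals were Q175 heterozygotes that also lacked Tyrobp. The sources used here do not give age or the form of the Tyrobp deletion. The animal numbers carried the letter T in all 12 animals without Tyrobp, the letter Q in all 6 Q175 animals and in WT replicate 3, and the letters WT in the other 5 WT animals. What these letters stand for is not given, so Tyrobp genotype and the letter T cannot be told apart. In Q175 against WT the letter also differs, except for WT replicate 3, so genotype and letter are nearly confounded there too. Q175_TyrobpKO against TyrobpKO is a comparison within 1 letter.

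The main neurons of the striatum are inhibitory projection neurons of a pair of output pathways. Neurons of the indirect pathway make proenkephalin (Penk) and neurons of the direct pathway make prodynorphin (Pdyn) and the precursor of substance P (Tac1), and in each case proteases cut the active peptides out of the precursor at pairs of basic residues. Enkephalins act mainly on the delta (Oprd1) and mu (Oprm1) opioid receptors and dynorphins on the kappa receptor (Oprk1), all of which couple to inhibitory G proteins and lower the release of transmitter. The early loss of enkephalin from the indirect pathway is a known feature of Huntington's disease.

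The coding sequences of the precursors hold the codons of their active peptides. Capitals mark the codons of the Penk and Pdyn peptide core and of the Tac1 peptide ends. The core does not separate the opioid ligands, since Penk copy 6 and Pdyn copy 2 have the same capitals. The sequences come from GENCODE M21 transcripts on GRCm38, with 2 codons on each side in lower case, and a search of the coding sequence for Tyr-Gly-Gly-Phe followed by Met or Leu found 7 copies in Penk and 3 in Pdyn.
Penk copy 1: aagaagTACGGAGGCTTCATGaaacgg
Penk copy 2: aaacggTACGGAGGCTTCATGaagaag
Penk copy 3: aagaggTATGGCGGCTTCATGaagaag
Penk copy 4: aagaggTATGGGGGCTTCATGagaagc
Penk copy 5: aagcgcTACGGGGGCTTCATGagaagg
Penk copy 6: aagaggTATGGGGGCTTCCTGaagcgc
Penk copy 7: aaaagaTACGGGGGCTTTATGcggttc
Pdyn copy 1: aaacgcTATGGCGGCTTTTTGcgcaaa
Pdyn copy 2: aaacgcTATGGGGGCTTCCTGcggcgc
Pdyn copy 3: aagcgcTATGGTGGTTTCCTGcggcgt
Tac1 substance P end: cagcagTTCTTTGGATTAATGggcaag
Tac1 neurokinin A end: gattccTTTGTTGGACTAATGggcaaa
In Penk, 6 of the 7 copies end in a Met codon and 1 in a Leu codon, and all 7 lie in exon 2 of 2, within 804 coding bases. A pair of basic codons stood on both sides of 5 of the 7 copies. Copies 4 and 7 have such a pair only before the peptide, and copy 7 runs on into Arg-Phe. All 3 Pdyn copies end in a Leu codon, lie in exon 4 of 4 and have basic codons on both sides. The Tac1 peptides end in Phe, any residue, Gly, Leu and Met, and lie in exons 3 and 6 of 7, each followed by a glycine codon.

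Total counts per library ran from 25.5 to 34.6 M (megacounts). Tyrobp lay at 5.69 to 11.8 CPM (read counts scaled by library size with TMM factors) in the 12 libraries with the gene and at 0.214 to 0.448 CPM in the 12 libraries labelled as without it. Htt lay at 137 to 178 CPM in the carriers of Q175 and at 188 to 236 CPM in the others. The summed level of 15 markers of striatal projection neurons was 6391 to 15967 CPM, so each library held striatal RNA. A sum of 11 markers of cortex and claustrum ranged from 64.5 to 1010 CPM, and a sum of 6 choroid plexus markers ranged from 25.1 to 131.6 CPM in WT and TyrobpKO but reached 4108 CPM in Q175 replicate 3. In other Q175 carriers that sum was also above the range of non-carriers, at 475 CPM in Q175 replicate 5 and at 206, 563 and 585 CPM in Q175_TyrobpKO replicates 2, 4 and 6. Of 6 hypothalamic markers, Oxt and Hcrt had mean levels under 0.1 CPM.

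Penk was by far the most abundant member. Compared per length, as RPKM (TMM-scaled CPM per kilobase of the deposited gene length), the order in WT was Penk at 665 ± 95.1 (SD, n = 6), Tac1 at 51.5 ± 8.06, Pdyn at 30.3 ± 4.49, Oprd1 at 11.7 ± 1.28, Oprk1 at 3.74 ± 0.783 and Oprm1 at 0.469 ± 0.134. The order was the same in the other 3 genotypes, and in none of the 4 did the ranges of neighbouring genes overlap. Penk exceeded Tac1 by a ratio of mean RPKM of 12.9 in WT and 11.9 in TyrobpKO, and of 6.11 in Q175 and 5.77 in Q175_TyrobpKO. By CPM, Penk ranked 72nd of all genes tested in WT. Oprm1 had the fewest reads of the 6 genes, at 66 to 202 per library. Its deposited length of 8037 bases counts each exon of 31 annotated transcripts once, so the value per length of a transcript with fewer exons would be higher. 

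**Figure D1:**
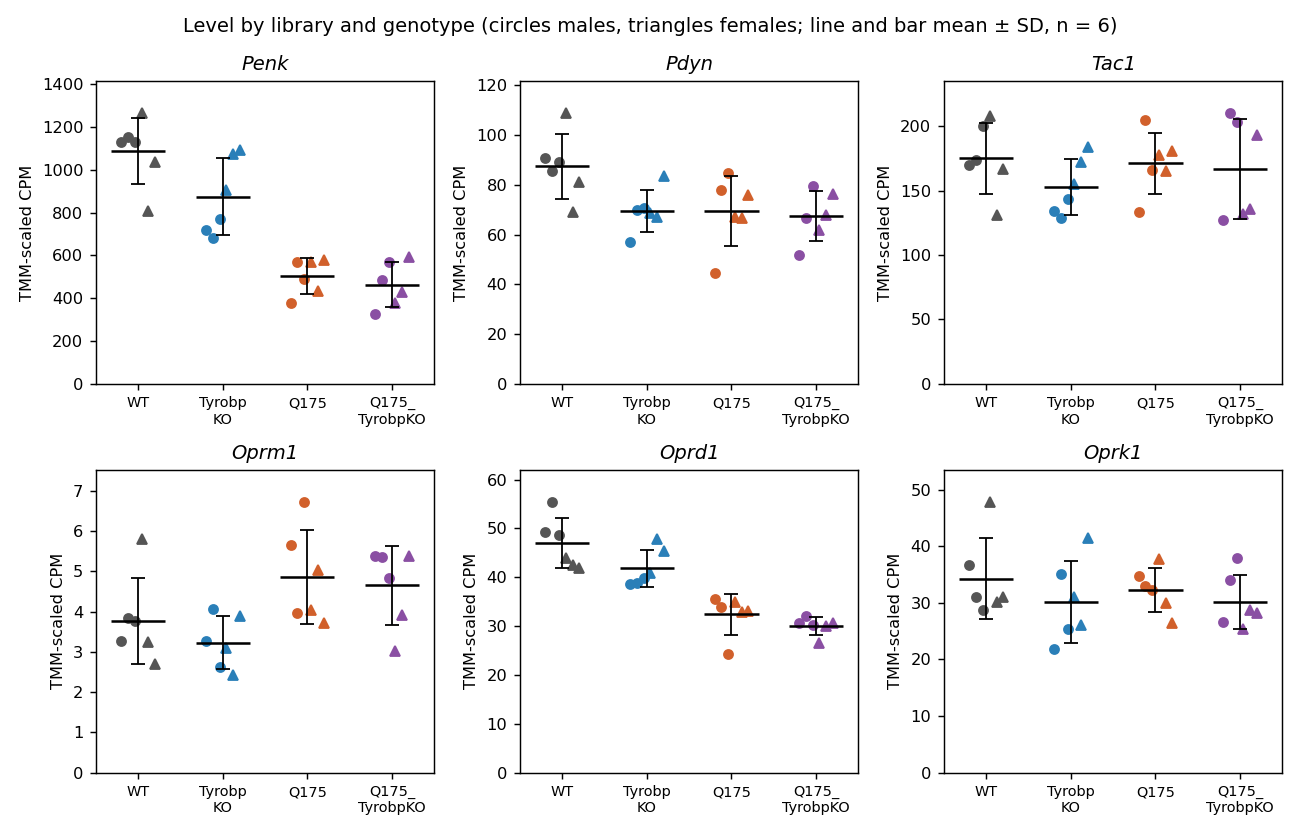
TMM-scaled CPM of each gene (vertical axis, from 0) in each of the 24 libraries, by genotype (horizontal axis), with circles for males, triangles for females, and a line and bar for the mean ± SD of 6 libraries. For Penk and Oprd1 the Q175 and Q175_TyrobpKO points all lie below the WT and TyrobpKO points, while the genotypes overlap for the other 4 genes.

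Q175 against WT asked what the Q175 allele changed with Tyrobp present. Of the 6 genes, Penk and Oprd1 fell, none rose, and Pdyn, Tac1, Oprm1 and Oprk1 did not pass the test. Over all 19667 genes, 9.63% were called in this comparison, with 5.47% lower in Q175 (edgeR's quasi-likelihood test, Benjamini-Hochberg adjusted p under 0.05). The median log2 fold change of the 6 was -0.21, against 0.01 over all genes tested. In bulk tissue, fewer cells of a type and less RNA per cell cannot be told apart.

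Among the ligand precursors, Penk (ENSMUSG00000045573, GRCm38 chr4:4133531-4138819, minus strand), the enkephalin precursor, ranged in WT from 805 CPM through a median of 1129 to 1263 CPM. In Q175 its lowest, median and highest values were 377, 528 and 580 CPM. The groups did not overlap. Penk fell by 53.7% in mean CPM, a log2 change of -1.12 ± 0.16 (SE; edgeR adjusted p 5.51e-05). Of the 239 genes with at least 500 CPM in WT, only Scn4b, a sodium channel subunit of projection neurons, had a lower log2 fold change. The cut-off was chosen for Penk and applied to the WT mean alone, so this rank only describes Penk among those genes. WT replicate 3, the WT animal whose number shares a letter with the Q175 animals, had 1131 CPM, near the WT median. Penk overlaps the gene A830012C17Rik on the other strand, and whether counting used strand is not stated in these sources.

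Pdyn (ENSMUSG00000027400, chr2:129686565-129699844, minus strand), the dynorphin precursor, lay at 69.2, 87.3 and 108.6 CPM (lowest, median, highest) in WT and at 44.4, 71.4 and 84.5 CPM in Q175. The ranges overlapped, with 3 of 6 Q175 libraries below the WT range. The log2 change was -0.33 ± 0.13 and missed the threshold (edgeR adjusted p 0.126, unadjusted p 0.0203). Tac1 (ENSMUSG00000061762, chr6:7554879-7565834, plus strand), the substance P and neurokinin A precursor, lay at 131.2, 171.96 and 208 CPM in WT and at 133.1, 171 and 205 CPM in Q175. The 2 sets of Tac1 values cover nearly the same range. The log2 fold change of Tac1 was -0.03 with a 95% confidence interval from -0.33 to 0.26 (edgeR adjusted p 0.929), an interval that does not reach the fall of Penk.

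Among the receptors, Oprd1 (ENSMUSG00000050511, chr4:132110726-132144486, minus strand), the delta opioid receptor, lay at 42.0, 46.3 and 55.4 CPM in WT and at 24.2, 33.5 and 35.4 CPM in Q175. All 6 Q175 libraries were below the WT range, and WT replicate 3 had 48.7 CPM. Oprd1 fell by 31.0%, a log2 change of -0.53 ± 0.08 (edgeR adjusted p 7.68e-05). It ranked 147th from the lowest among 8022 genes with at least 20 CPM in WT, a cut-off chosen for Oprd1 and applied to WT alone. The lowest value came from Q175 replicate 3, the library with 4108 CPM of choroid plexus markers, and without that library the log2 change was -0.46 (edgeR adjusted p 0.000121).

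Oprm1 (ENSMUSG00000000766, chr10:6758506-7038198, plus strand), the mu opioid receptor, lay at 2.70, 3.52 and 5.80 CPM in WT and at 3.73, 4.54 and 6.72 CPM in Q175. The ranges overlapped, and 1 Q175 library, again replicate 3, lay above all WT libraries. The log2 fold change of Oprm1 was 0.36 ± 0.18 (edgeR adjusted p 0.256). WT replicate 4 was the highest WT library, and without it the value was 0.56 (edgeR adjusted p 0.0367), so that 1 library decided this call. Oprm1 overlaps Ipcef1 and Gm10945 on the other strand, which makes its counts uncertain. Oprk1 (ENSMUSG00000025905, chr1:5588466-5606131, plus strand), the kappa opioid receptor, lay at 28.7, 31.1 and 47.8 CPM in WT and at 26.4, 32.6 and 37.7 CPM in Q175. Its log2 fold change was -0.08 with a 95% interval from -0.39 to 0.22 (edgeR adjusted p 0.805).

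Q175_TyrobpKO against TyrobpKO asked the same of the Q175 allele without Tyrobp. The members called were again Penk and Oprd1, both lower, beside 5.86% of all genes tested (3.08% lower). Penk lay at 681, 838 and 1092 CPM in TyrobpKO and at 326, 456 and 591 CPM in Q175_TyrobpKO. The groups did not overlap, and Penk fell by 47.0%, a log2 change of -0.91 ± 0.15 (edgeR adjusted p 0.00101). Oprd1 lay at 38.6, 40.3 and 47.7 CPM in TyrobpKO and at 26.6, 30.4 and 32.1 CPM in Q175_TyrobpKO. These did not overlap either, and Oprd1 fell by 28.2%, a log2 change of -0.48 ± 0.08 (edgeR adjusted p 0.000557). Its lowest value came from Q175_TyrobpKO replicate 4, with 563 CPM of choroid plexus markers.

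The other 4 genes did not pass in Q175_TyrobpKO against TyrobpKO. Pdyn, at 57.2 to 83.4 CPM in TyrobpKO and 51.6 to 79.4 CPM in Q175_TyrobpKO, had a log2 change of -0.05 ± 0.13 (edgeR adjusted p 0.900). Tac1, at 128.4 to 184 CPM and 127.0 to 209.9 CPM, had 0.13 ± 0.14 (edgeR adjusted p 0.707). Oprk1, at 21.9 to 41.5 CPM and 25.3 to 37.9 CPM, had 0.00 ± 0.15. Oprm1, at 2.42 to 4.07 CPM in TyrobpKO and 3.03 to 5.40 CPM in Q175_TyrobpKO, had 0.52 ± 0.19, with 4 of 6 libraries above the TyrobpKO range (edgeR adjusted p 0.102). Without WT replicate 4, which enters this comparison only through the shared estimate of the spread, the adjusted p for Oprm1 was 0.0473.

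Over both Tyrobp genotypes, the 12 carriers of Q175 had 326 to 591 CPM of Penk and the 12 non-carriers 681 to 1263 CPM. For Oprd1 the ranges were 24.2 to 35.4 CPM in carriers and 38.6 to 55.4 CPM in non-carriers. In neither gene did a carrier reach a non-carrier. The share of all genes tested whose groups do not overlap was not counted, here or in the single comparisons. The summed level of 6 astrocyte markers was separated in the same way, at 2974 to 3708 CPM in carriers and 3769 to 4204 CPM in non-carriers, and its part in the values of Penk and Oprd1 was not tested. Of those markers, the glutamate transporter Slc1a2, the most abundant, fell in Q175 against WT (log2 fold change -0.37, edgeR adjusted p 0.000162), Gfap rose (0.63, edgeR adjusted p 0.0425), and the other 4 did not pass. Pdyn, Tac1, Oprm1 and Oprk1 overlapped between carriers and non-carriers. In Q175_TyrobpKO against WT, where 9.44% of all genes were called and 5.54% were lower, Penk (log2 fold change -1.23, edgeR adjusted p 1.70e-05) and Oprd1 (-0.64, edgeR adjusted p 5.80e-06) were again the members called. Pdyn had -0.38 there (edgeR adjusted p 0.0795), and DESeq2 called it (adjusted p 0.0272).

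**Figure D2:**
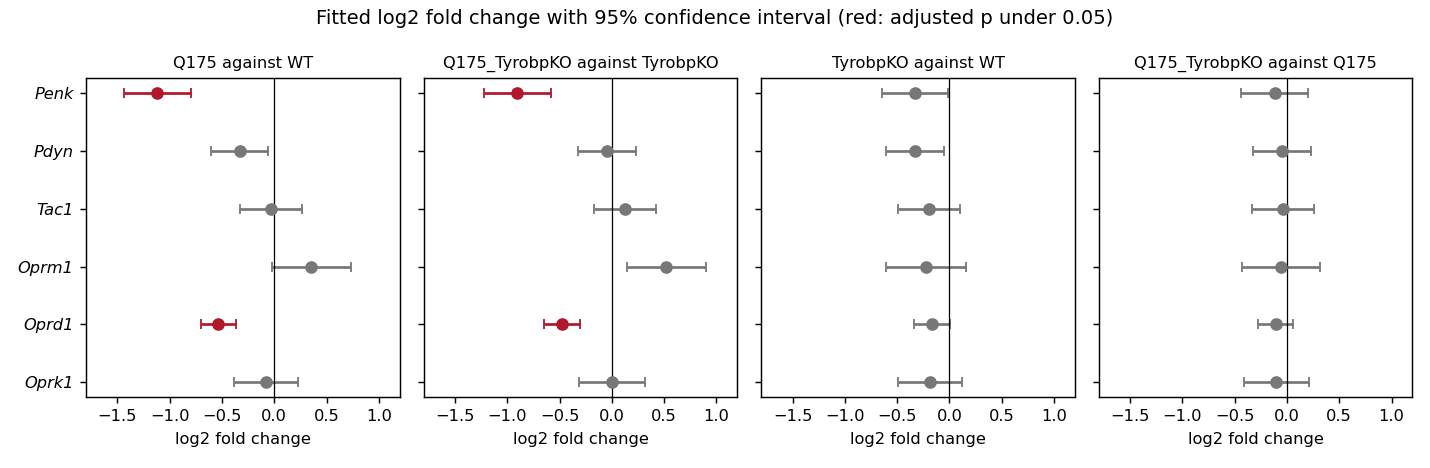
Fitted log2 fold change (horizontal axis) with its 95% confidence interval for the 6 genes (rows) in 4 comparisons (panels), in red where the edgeR adjusted p was under 0.05. Penk and Oprd1 are red and negative in both comparisons of Q175 carriers with non-carriers, and no gene is red in the comparisons of Tyrobp genotypes.

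Deletion of Tyrobp was compared in animals without and with the Q175 allele. In TyrobpKO against WT, none of the 6 genes was called by edgeR, beside 0.117% of all genes, and limma-voom and DESeq2 called none of them. All 6 fitted values were negative, from -0.33 for Penk and for Pdyn to -0.16 for Oprd1, and the 2 precursors named had unadjusted p of 0.0444 and 0.0207 (edgeR adjusted p 0.749 for each). Penk lay at 681 to 1092 CPM in TyrobpKO, with 3 of 6 libraries below the WT range. These were the 3 males, at 681 to 771 CPM, while the females lay at 905 to 1092 CPM. The log2 fold change of Penk was -0.66 ± 0.19 in males alone (edgeR adjusted p 0.140) and -0.0195 ± 0.20 in females alone, and the difference between the sexes in this comparison was not tested. The cortex and claustrum sum was 753 to 1010 CPM in the TyrobpKO males and 476 to 625 CPM in the TyrobpKO females. Markers of other tissue moved with these values: the cortex and claustrum sum was 476 to 1010 CPM in TyrobpKO against 85.6 to 760 CPM in WT, all 11 of its genes had positive log2 fold changes (median 0.66, none called), and all 15 projection neuron markers were negative (median -0.27, none called). A further fit, chosen after seeing the data, had the log2 cortex and claustrum sum as a covariate. The values became -0.17 for Penk, -0.17 for Pdyn and -0.04 for Tac1. Among the receptors, Oprm1 went from -0.23 to -0.10 and Oprk1 from -0.18 to -0.12, while Oprd1 had -0.18.

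In Q175_TyrobpKO against Q175, where 0.158% of all genes were called, none of the 6 genes passed by edgeR, limma-voom or DESeq2. Penk lay at 377 to 580 CPM in Q175 and 326 to 591 CPM in Q175_TyrobpKO, a log2 change of -0.12 ± 0.15 (95% interval -0.44 to 0.20). Oprd1 had -0.11 ± 0.08 and Oprk1 -0.10 ± 0.15. The values of Pdyn, Tac1 and Oprm1 lay between -0.06 and -0.04. The interaction, which tests whether the Q175 effect depended on Tyrobp, was 0.21 ± 0.22 for Penk and 0.06 ± 0.12 for Oprd1 (edgeR adjusted p 0.999 for both). These values pool fits of opposite sign in the sexes. In males alone the interaction was 0.60 ± 0.26 for Penk, 0.38 ± 0.16 for Oprd1 and 0.53 ± 0.27 for Tac1, and in females alone it was -0.17 ± 0.28, -0.27 ± 0.13 and -0.20 ± 0.24. None of these was called, and the difference between the sexes in the interaction was not tested. Over all genes, edgeR called 0 interactions (707 at an unadjusted p under 0.05), limma-voom 1 and DESeq2 2, and no member was among them.

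Ratios of 2 genes within a library do not depend on how libraries were scaled, and they were tested by 2-sided exact permutation over all 924 ways to split 12 libraries, with adjustment over 12 tests. The ratios show that the members did not fall together. The log2 ratio of Penk to Tac1 was 2.50 to 2.73 in WT and 1.38 to 1.68 in Q175, a difference of -1.09 (exact permutation p 0.00216, the smallest the splits allow; adjusted p 0.0052). Without Tyrobp it was 2.41 to 2.65 in TyrobpKO and 1.21 to 1.66 in Q175_TyrobpKO, a difference of -1.03 with the same p. In both comparisons the genotypes were separated by a wide gap. For Penk to Pdyn the differences were -0.77 and -0.87, again with no overlap and the same exact permutation p. For Pdyn to Tac1, the 2 precursors of the direct pathway, the difference was -0.32 with Tyrobp (adjusted exact permutation p 0.0148) and -0.16 without it (0.210).

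Among the receptors the ratio of Oprm1 to Oprd1 was higher in carriers of Q175, while Oprm1 itself, at 66 to 202 reads per library, was not called. The highest ratio of WT came from replicate 4 and that of Q175 from replicate 3. The log2 ratio of Oprm1 to Oprd1 was -3.96 to -2.92 in WT and -3.15 to -1.85 in Q175, a difference of 0.91 with overlapping ranges (exact permutation p 0.00866, adjusted p 0.0148). In TyrobpKO it was -4.30 to -3.25 and in Q175_TyrobpKO -3.13 to -2.50, a difference of 0.998 without overlap (exact permutation p 0.00216, adjusted p 0.0052). Oprd1 to Oprk1 differed by -0.47 and -0.49 (adjusted exact permutation p 0.0338 and 0.0162). Oprm1 to Oprk1 differed by 0.45 and 0.51 (adjusted exact permutation p 0.0401 and 0.0202). The first value of each of these last 2 pairs, for Q175 against WT, lost its call when some single libraries were left out (adjusted p up to 0.0649 for Oprd1 to Oprk1 and 0.0803 for Oprm1 to Oprk1, both highest without Q175 replicate 3).

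**Figure D3:**
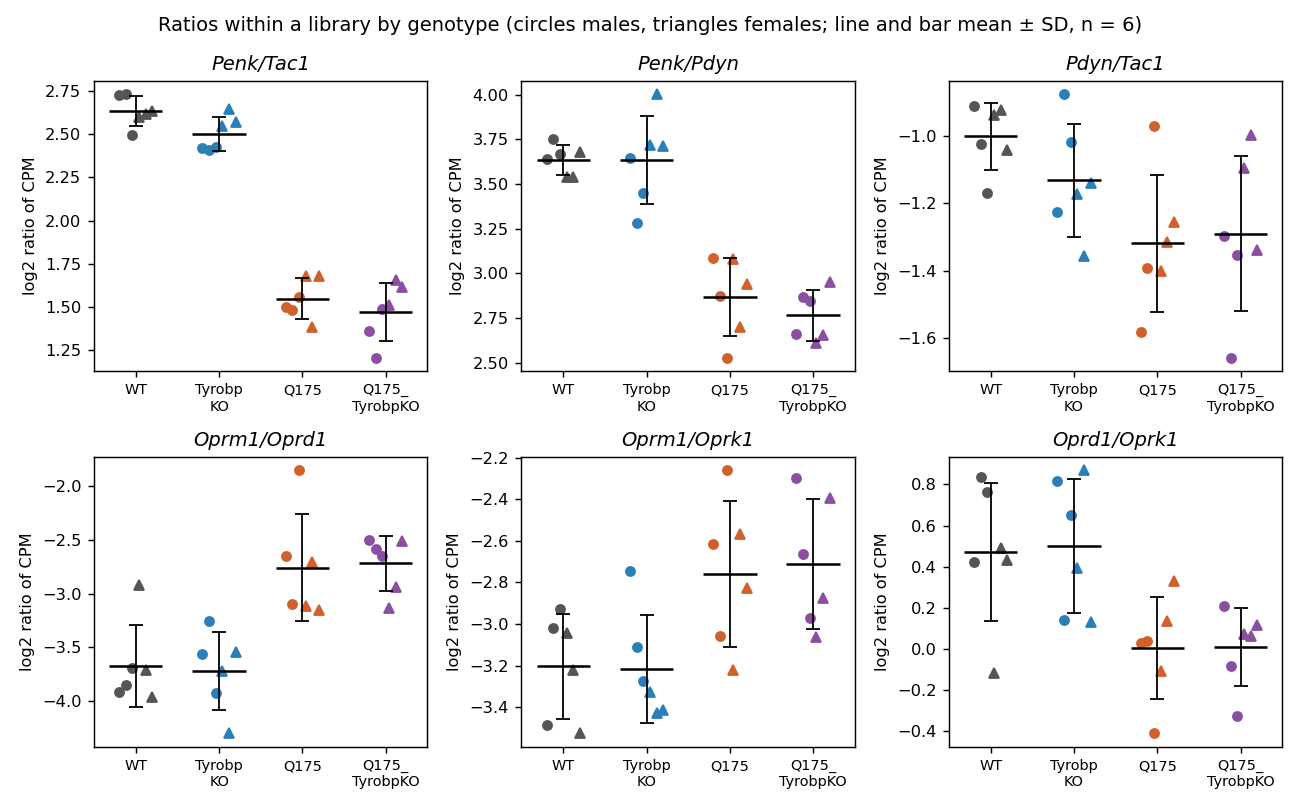
Log2 ratio of the CPM of 2 genes of the same library (vertical axis) by genotype, 1 point per library, circles for males and triangles for females, with the mean ± SD of 6 libraries. The ratio of Penk to Tac1 falls from 2.50 to 2.73 in WT to 1.38 to 1.68 in Q175 with no overlap, and the ratio of Oprm1 to Oprd1 is higher in both genotypes with Q175.

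The precursors varied together among animals of 1 genotype. After genotype and sex means were removed, log2 CPM of Penk and Tac1 correlated with Pearson's r = 0.92 over 24 libraries (Spearman's rho 0.93, r 0.90 without the 2 libraries farthest from the median, 0.89 to 0.99 within the 4 genotypes). For Penk and Pdyn r was 0.76 (rho 0.74) and for Pdyn and Tac1 0.73 (rho 0.71), and all 3 pairs had a permutation p, adjusted over 15 pairs, of 0.0002 or less for r. Between a precursor and a receptor r was lower, from -0.13 for Pdyn and Oprd1 to 0.43 for Tac1 and Oprk1, and no such pair had an adjusted permutation p under 0.05. Oprk1 also had r = 0.43 with Pdyn (rho 0.45, r 0.59 without the 2 farthest libraries, adjusted permutation p 0.0961). Penk and Oprd1 had r = 0.39 (rho 0.45, adjusted permutation p 0.113), with values from -0.11 to 0.96 within the 4 genotypes. Among receptors, Oprm1 and Oprk1 correlated at 0.57 (rho 0.53, adjusted permutation p 0.0115), and at 0.40 without the 2 libraries farthest from the median.

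The level of cortical markers moved with the 3 precursors. In each genotype the library with the highest cortex and claustrum sum had the lowest Penk and the lowest Tac1: WT replicate 5 (760 CPM of cortex and claustrum markers, 805 CPM of Penk), TyrobpKO replicate 2 (1010 and 681), Q175 replicate 1 (838 and 377) and Q175_TyrobpKO replicate 1 (925 and 326). Over the 24 libraries, with genotype and sex means removed, the sum correlated with Penk at r = -0.73 (rho -0.80, r -0.73 without the 2 farthest libraries), Pdyn at -0.80 (rho -0.85, -0.82) and Tac1 at -0.75 (rho -0.79, -0.74), each with a permutation p adjusted over 12 relations of 0.0001 or less. Oprd1 (r 0.15), Oprk1 (-0.26) and Oprm1 (-0.38) had adjusted permutation p over 0.05. The sum of projection neuron markers correlated with Penk at 0.94 (rho 0.94), Tac1 at 0.93 (rho 0.94) and Pdyn at 0.72 (rho 0.73, adjusted permutation p 7.2e-05). Among the receptors it correlated with Oprk1 at 0.46 (rho 0.39) and Oprd1 at 0.45 (rho 0.51), each with an adjusted permutation p of 0.0362 for r, and with Oprm1 at 0.19 (rho 0.16). Without the 2 farthest libraries r was 0.34 for Oprk1 and 0.38 for Oprd1, and the adjusted permutation p of rho was 0.0879 for Oprk1 and 0.0209 for Oprd1.

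**Figure D4:**
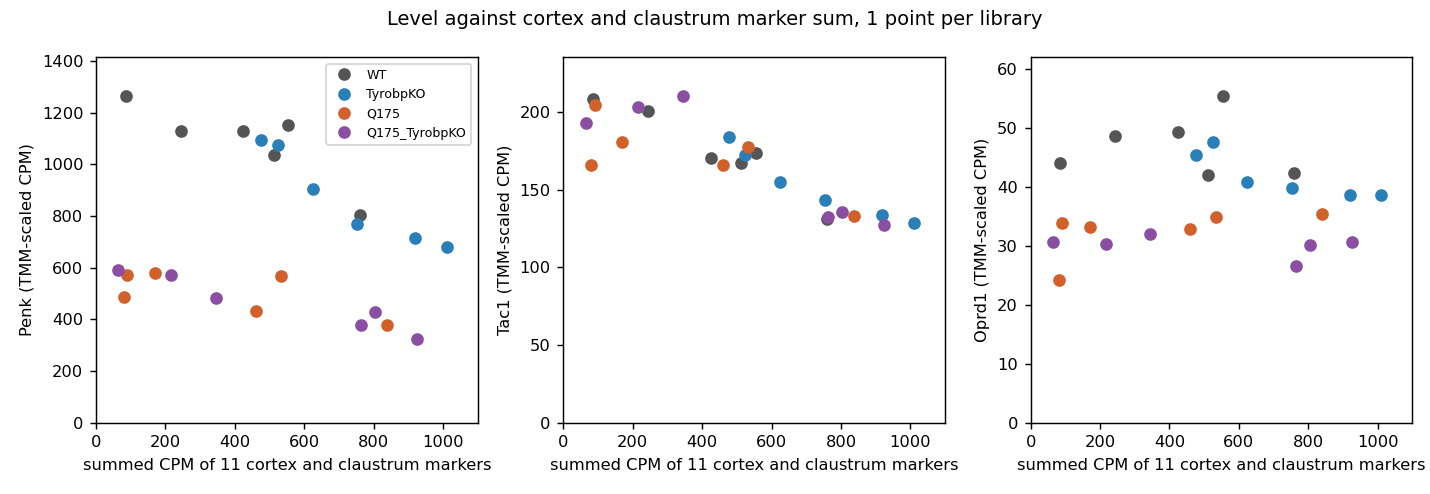
TMM-scaled CPM of Penk, Tac1 and Oprd1 (vertical axes, from 0) against the summed CPM of 11 cortex and claustrum markers (horizontal axis), 1 point per library, coloured by genotype. Penk and Tac1 are lower where the sum is higher, Oprd1 shows no such slope, and Q175 carriers have less Penk than non-carriers across the range of the sum.

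Penk and Oprd1 were also called with that sum as a covariate, an alternative chosen after seeing the data. In Q175 against WT the log2 change was then -1.20 ± 0.11 for Penk (edgeR adjusted p 6.54e-08) and -0.53 ± 0.08 for Oprd1 (edgeR adjusted p 2.90e-05). In Q175_TyrobpKO against TyrobpKO it was -1.07 ± 0.11 for Penk and -0.46 ± 0.08 for Oprd1. Pdyn passed the test in that fit, at -0.42 ± 0.08 in Q175 against WT (edgeR adjusted p 0.000438) and -0.36 ± 0.08 in Q175_TyrobpKO against WT (edgeR adjusted p 0.00182), but not in Q175_TyrobpKO against TyrobpKO (-0.19 ± 0.08, edgeR adjusted p 0.157). Tac1 had -0.10 ± 0.09 in Q175 against WT (edgeR adjusted p 0.553).

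Some markers of each output pathway fell in Q175 and others did not pass the test. In Q175 against WT, 3 of 6 indirect pathway markers fell: the adenosine receptor Adora2a (-0.88), the receptor Gpr6 (-0.78) and the dopamine receptor Drd2 (-0.62), while Plxdc1 had -0.28, Grik3 -0.09 and Sp9 -0.02 (median -0.45). Gpr52, listed beside them, was not analysed here. In the direct pathway, whose neurons make Pdyn and Tac1, 3 of 7 markers fell: the muscarinic receptor Chrm4 (-0.73), the dopamine receptor Drd1 (-0.70) and Sfxn1 (-0.33). Slc35d3 had -0.05 and the transcription factors Isl1, Ebf1 and Eya1 had 0.18, 0.04 and 0.20 (median of the list -0.05). Among direct pathway genes, Drd1 thus passed the test where Tac1 (-0.03) did not, and the difference between them was not tested. In Q175_TyrobpKO against TyrobpKO, Adora2a (-0.66) and Gpr6 (-0.40) fell among the indirect markers and Chrm4 (-0.55), Drd1 (-0.51) and Sfxn1 (-0.25) among the direct ones, with Drd2 at -0.48 (edgeR adjusted p 0.0840). Of 15 markers shared by both kinds of neuron, 12 fell with Tyrobp present (median -0.56) and 4 without it (median -0.37). The 4 were Scn4b (-1.10), Pde10a (-0.72), Arpp21 (-0.65) and Adcy5 (-0.45). Of all genes tested, 5.47% were lower with Tyrobp present and 3.08% without it. In the interaction of Q175 and Tyrobp genotype none of the 15 markers was called and none was negative (median 0.23). The counts of 12 and 4 therefore do not show that the fall depended on Tyrobp. All 15 were also negative in TyrobpKO against WT (median -0.27, none called).

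The log2 fold change of Penk in Q175 against WT, -1.12, was lower than that of each gene of the peptide, receptor, enzyme and signalling lists, of which Rgs14 had the lowest at -0.98, and these differences were not tested. Among 13 other peptide precursors tested of 15 listed, 1 rose in Q175 against WT and none fell (median -0.21). The one that rose was Nts, the neurotensin precursor, at 2.45 to 4.41 CPM in WT and 5.01 to 7.29 CPM in Q175. Its groups did not overlap, and its log2 fold change was 0.96 ± 0.18 (edgeR adjusted p 0.000525). Nts rose also in Q175_TyrobpKO against TyrobpKO, by 0.78 ± 0.17 (edgeR adjusted p 0.00665). Adcyap1 (0.63), Trh (-0.39) and Cartpt (-0.61) did not pass.

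Of 5 further peptide receptors tested of 6 listed, the nociceptin receptor Oprl1, the remaining member of the opioid receptor family, rose in Q175 against WT and the others did not pass. Oprl1 lay at 16.3 to 23.9 CPM in WT and 25.5 to 28.8 CPM in Q175, without overlap, and its log2 fold change was 0.35 ± 0.09 (edgeR adjusted p 0.0084). In Q175_TyrobpKO against TyrobpKO it rose by 0.33 ± 0.09 (edgeR adjusted p 0.0169). Oprl1 and Oprd1 thus moved in opposite directions in both comparisons. The neurotensin receptor Ntsr2 fell by 0.28 on the log2 scale without Tyrobp and had -0.15 with it, and the substance P receptor Tacr1 had -0.32 with Tyrobp present (edgeR adjusted p 0.293). The neurotensin receptor Ntsr1 had 0.29 there.

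Of 13 genes of precursor processing, 2 rose and 1 fell in Q175 against WT (median 0.05). The protease gene Ctsl rose by 0.30 and Scg5, which encodes a chaperone of the convertase PC2, by 0.27, while Pcsk2, which encodes that convertase, fell by 0.26 on the log2 scale. Chgb had -0.42 and did not pass. In Q175_TyrobpKO against TyrobpKO, Scg5 rose again (0.22) and Scg3 fell (-0.25). Of 11 peptidases that degrade opioid and tachykinin peptides, none was called in Q175 against WT, where Ece2 had 0.56 (edgeR adjusted p 0.0822), and Ece2 rose by 1.01 without Tyrobp (edgeR adjusted p 0.00271).

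Of 20 genes that carry or end the signal of inhibitory G proteins, 9 fell and 1 rose in Q175 against WT (median -0.21). In Q175_TyrobpKO against TyrobpKO, 5 fell and none rose (median -0.18). Over all genes tested, 5.47% and 3.08% were lower in these comparisons. Rgs14 and Rgs4, which speed the inactivation of these G proteins, fell by 0.98 and 0.76 on the log2 scale with Tyrobp (edgeR adjusted p 2.08e-08 and 2.31e-05) and by 0.66 and 0.52 without it. The others that fell without Tyrobp were Rgs7bp (-0.48), Adcy5 (-0.45), the adenylyl cyclase of striatal neurons that these G proteins inhibit, and Gnao1 (-0.18). Gnai2, the subunit that rose, had 0.19 ± 0.05, and Gnai3 had 0.16 (edgeR adjusted p 0.140). This list shares Rgs9 and Adcy5 with the projection neuron markers.

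**Figure D5:**
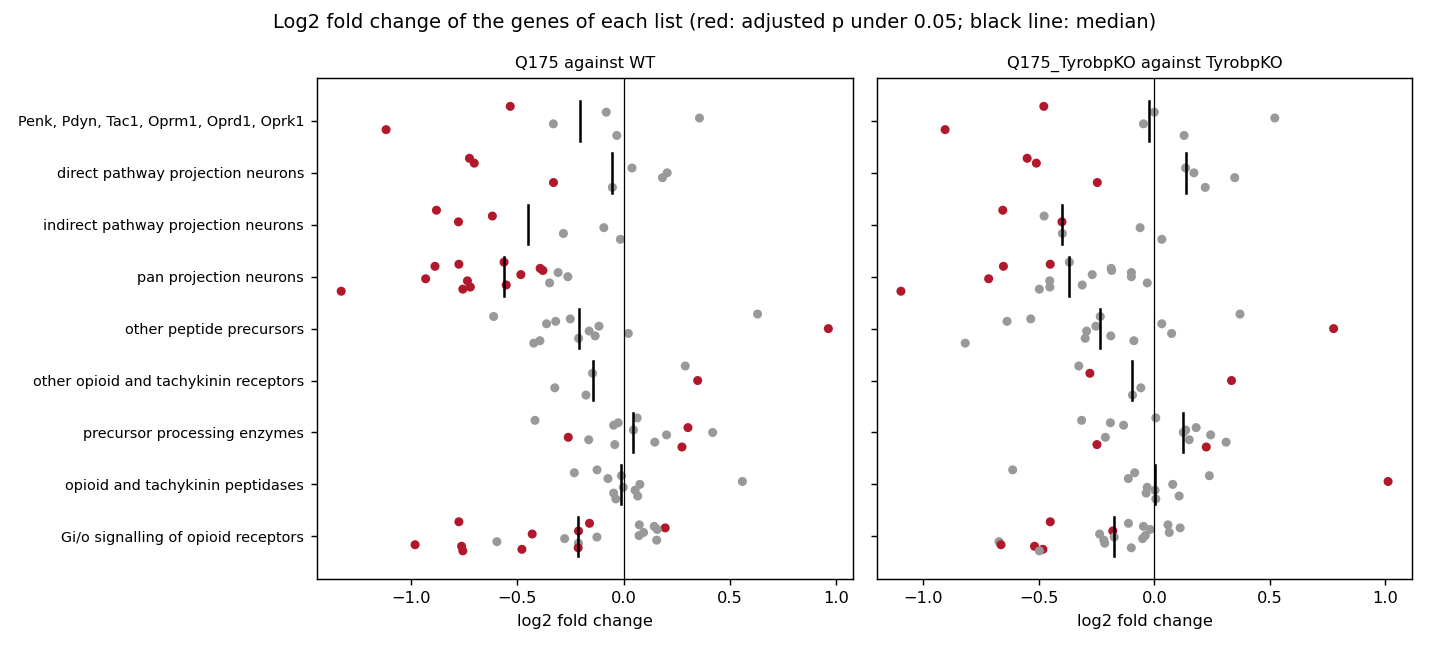
Log2 fold change (horizontal axis) of each tested gene of the lists (rows) in 2 comparisons (panels), in red where the edgeR adjusted p was under 0.05, with a black line at the median of the list. Red points lie mostly to the left for projection neuron and G protein signalling genes, with medians of -0.56 and -0.21 in Q175 against WT, and Nts and Oprl1 are the red points to the right in the precursor and receptor rows.

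No member was called for sex. In females against males, 0.0814% of all genes were called, and the members had log2 fold changes from -0.17 (Oprm1) to 0.13 (Penk), each with an edgeR adjusted p of 0.999. The interaction of Q175 and sex was -0.11 ± 0.20 for Penk and 0.04 ± 0.10 for Oprd1, and its lowest value was -0.39 ± 0.20 for Oprk1 (edgeR adjusted p 0.998 for all). No gene of all those tested was called for it by edgeR (593 at an unadjusted p under 0.05), limma-voom or DESeq2. With 3 animals a group, Penk and Oprd1 passed in males alone in Q175 against WT (-1.25 and -0.72) but not in females alone (-0.97, edgeR adjusted p 0.0514, and -0.34, edgeR adjusted p 0.0895). In Q175_TyrobpKO against TyrobpKO they passed in females alone (-1.14 and -0.62) but not in males alone (-0.65, edgeR adjusted p 0.194, and -0.33, edgeR adjusted p 0.247).

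The genes most like each member were sought among 15489 genes with a mean of at least 1 CPM, by Pearson's r of log2 CPM over 24 libraries with genotype and sex means removed. For Penk they were Gng7 (0.98), Ypel2 (0.96) and Ankrd63 (0.96). Gng7, a G protein subunit gene of striatal neurons, had a log2 fold change of -0.31 in Q175 against WT, which did not pass (edgeR adjusted p 0.197), beside -1.12 for Penk. Those of Tac1 were Sowaha (0.97), Necab2 (0.96) and Slc32a1 (0.96), the last being the vesicular transporter of the inhibitory transmitter GABA. Pdyn was most like Rbm15 (0.89), Filip1 (0.89) and Armc9 (0.89). The values of the receptors were lower. Oprd1 was most like Gnao1 (0.83), which encodes an inhibitory G protein subunit, Inka2 (0.81) and Clptm1l (0.79). Oprk1 was most like Pam (0.79), which encodes the enzyme that amidates peptides, Sntg2 (0.77) and Med12l (0.77), and Oprm1 was most like A330076H08Rik, Ecpas and Ccdc30 (0.78, 0.77 and 0.75). These values are descriptive, since the libraries also differed in the cortex and claustrum sum, and its part in them was not tested.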

How the data were processed

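For the 24 libraries the authors deposited whole-number counts of reads per gene, without normalization. The table had 0 columns of other samples. Per the submitters' processing notes, STAR, featureCounts and DESeq2 were used, with no versions, and the build named there is GRCh38. Of the 54532 deposited gene identifiers, 54409 were found in GENCODE M21 on the mouse build GRCm38, 98.3% of them with the same start and end, so coordinates are given on GRCm38. The sources used here do not say whether counting used strand. The labels number animals, so each library was taken as 1 animal, and replicate numbers only name libraries. The 60 pairs of libraries of 1 genotype had a mean chi-square per gene of 6.89 to 42.6 over genes with 20 or more reads in both together, so none differed by as little as sampling noise.

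The main test was edgeR's 2-sided quasi-likelihood test (edgeR 4.0.16, R 4.3.3) with TMM scaling, filterByExpr, a robust fit of all 24 libraries and a term for sex, with Benjamini-Hochberg adjustment over the 19667 genes left and a threshold of 0.05. On simulated data with 19354 genes, it called 71 of 100 changes of 1.5-fold and 86 of 100 of 2-fold, with 9 false calls. Log2 CPM for correlations used a prior count of 2, with 100000 permutations for each p. Alternatives were other scaling factors, no filter, limma-voom (limma 3.58.1), DESeq2 1.42.0, no sex term, only the libraries compared, each sex alone, each library left out, and, for ratios, 0.5 CPM added and labels permuted within sex. The fit with a cortex marker covariate was added after seeing the data. Total counts were 25.5 to 34.6 M per library, and the part of depth in the spread of low genes such as Oprm1 was not tested.

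The 6 genes, the lists (other peptide precursors, other receptors, precursor processing, peptidases, G protein signalling and markers of cell types and neighbouring regions) and the rule for naming genes were chosen with earlier results of these data known. The rule named the members, the 2 genes of smallest p in each direction in Q175 against WT of each pathway list, each pathway marker, the 3 genes most like each member, and Tyrobp and Htt. Scn4b, Ntsr2, Scg3, Pde10a, Arpp21, Rgs7bp, Adcy5, Rgs9, Slc1a2, Gfap, Ryr1, Sipa1l3, the fold change of Gnao1 and genes named for overlap were chosen after their values were seen. Medians of the marker lists not described in the report follow, for Q175 against WT. They were -0.14 for striosome, -0.15 for matrix, -0.13 for interneurons, -0.17 for cortex and claustrum and -0.07 for thalamus, septum and pallidum. Astrocytes (sums in the report) had -0.08, oligodendrocytes -0.05, microglia -0.0014 and endothelium -0.10. The hypothalamus median, -0.16, rested on 2 tested genes of 6 listed. Choroid plexus had 2.84 with 1 of 6 genes called, and its sum reached 4108 CPM in Q175 replicate 3.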

Additional observations from a re-analysis of the deposited data

Results flagged for a closer look

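In 4 of 48 groups of 6 libraries examined, 1 library stood apart from the other 5 by a gap that was large beside the range of the group; chance gives such a gap in about 1 group in 20. Oprm1 in WT had 5.80 CPM in replicate 4, against 3.84 CPM in the next library. That library also set the log2 ratio of Oprm1 to Oprd1 in WT, at -2.92 against -3.69 in the next. It had the lowest cortex and claustrum sum of WT (85.6 CPM), and the part of this in the values was not tested. Oprd1 in Q175 had 24.2 CPM in replicate 3, against 32.9 CPM in the next library, beside 4108 CPM of choroid plexus markers in that library. Oprd1 in Q175_TyrobpKO had 26.6 CPM in replicate 4, against 30.1 CPM in the next library, beside 563 CPM of choroid plexus markers.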

How the results depend on the processing

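Penk and Oprd1 kept their direction in both comparisons of the Q175 allele within a Tyrobp genotype under all 34 alternatives of each, and their call under all but 1 of each, the fit of a single sex given in the report. With each library left out in turn, Penk ranged from -1.20 to -1.05 and Oprd1 from -0.56 to -0.46 with Tyrobp present, and from -0.99 to -0.83 and -0.50 to -0.43 without Tyrobp. The fits of 1 sex, which hold 3 animals a group, called fewer genes than the fit of both in most comparisons. The counts in males and in females alone were 759 and 187 in Q175 against WT, 65 and 8 in TyrobpKO against WT, 752 and 240 in Q175_TyrobpKO against WT, 104 and 290 in Q175_TyrobpKO against TyrobpKO, and 11 and 11 in Q175_TyrobpKO against Q175, where DESeq2 called 52. The interaction of Q175 and Tyrobp genotype had 0 calls in the test of the report, 1 with limma-voom, 2 with DESeq2, 2 with the cortex covariate and 0 to 2 with a library left out (Ryr1 and Sipa1l3; the cause was not tested). Pdyn in Q175_TyrobpKO against WT, not called in the test of the report, was called without WT replicate 5, without Q175 replicate 1 or without Q175_TyrobpKO replicate 3, with edgeR adjusted p from 0.0248 to 0.0471 there. With libraries left out, the ratio of Oprm1 to Oprk1 in Q175 against WT ranged from 0.35 to 0.54, and lost its call for 7 of 12 libraries (WT replicates 1, 5 and 6 and Q175 replicates 1, 3, 5 and 6), and that of Oprd1 to Oprk1 ranged from -0.59 to -0.39 and lost its call for 2 (WT replicate 2 and Q175 replicate 3). No value that changed sign was called on either side, but some moved far in the fits of 1 sex. Females alone turned Tac1 to 0.0497 and males alone Oprk1 to 0.0473 in Q175 against WT, females alone turned Tac1 to 0.00808 and Oprd1 to 0.0571 in TyrobpKO against WT, males alone turned Oprk1 to 0.0281 in Q175_TyrobpKO against WT, and females alone turned the interactions of Penk, Tac1, Oprd1 and Oprk1 to -0.17, -0.20, -0.27 and -0.0521, against 0.60, 0.53, 0.38 and 0.21 in males alone. Penk in TyrobpKO against WT was -0.66 in males alone and -0.0195 in females alone. In Q175_TyrobpKO against Q175, the cortex covariate turned Pdyn to 0.0569 and Tac1 to 0.0364, and males alone turned Tac1 to 0.10. In Q175_TyrobpKO against TyrobpKO, Tac1 was -0.0264 with that covariate and -0.15 in females alone, against 0.41 in males alone. Oprk1 there, at 2.5e-05, was -0.00201 with DESeq2's size factors, -0.00338 without a filter, -0.00226 with DESeq2, -0.00197 without the sex term, -0.00189 with only the libraries compared, -0.0552 with the covariate and -0.26 in females alone. With libraries left out, sign changes lay within -0.11 to 0.0331 for Tac1 and -0.13 to 0.0459 for Oprk1 in Q175 against WT, within -0.15 to 0.0290 for Pdyn, -0.12 to 0.0304 for Tac1 and -0.13 to 0.0402 for Oprm1 in Q175_TyrobpKO against Q175, within -0.11 to 0.0183 for Pdyn and -0.0803 to 0.12 for Oprk1 in Q175_TyrobpKO against TyrobpKO, and within -0.0353 to 0.26 for Oprm1, -0.0241 to 0.10 for Oprd1 and -0.0444 to 0.20 for Oprk1 in the interaction. Of the 6 genes Oprm1 had the fewest reads, at 66 to 202 per library.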
